A study of Mus musculus with 1505 samples.

Results

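The Pvalb Calb1_1, Pvalb Calb1_2 and Pvalb Gpr149 transcriptomic types (t-types) are 3 of the 9 t-types of parvalbumin interneurons sampled in primary motor cortex of the mouse. Their cells were chosen by the t-type that the labels give to each neuron recorded at 25 °C. They numbered 69 neurons, with 9 in Calb1_1, 30 in Calb1_2 and 30 in Gpr149. This is 24.1% of the 286 Pvalb neurons at 25 °C, out of 1320 neurons recorded at that temperature and 1505 in the series. They were set beside the other 217 Pvalb neurons, which belong to the t-types Gabrg1 (7), Egfem1 (11), Kank4 (22), Reln (72), Il1rapl2 (88) and Vipr2_2 (17), the last of which holds chandelier cells.

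In Patch-seq, a neuron in an acute brain slice is recorded through a pipette, and its RNA is then drawn into the same pipette and sequenced with the Smart-seq2 protocol. The mice were untreated adults of both sexes, either wild-type C57Bl/6 or carrying a Cre driver (Viaat, Sst, Vip, Pvalb, Npy, Vipr2, Slc17a8 or Gnb4) with the Ai9 reporter, which makes the driver's cells visible for patching. The labels tie no neuron to a mouse, a line, an age or a sex, so how far these t-types differ in such respects was not analysed here. Each t-type therefore counts as 1 sample, and no p-value or standard error is given. The authors set each t-type by correlating the exonic and intronic expression of a cell with reference profiles. The levels below are thus a description of cells whose names depend on the same RNA, and not an independent test of those names.

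Parvalbumin interneurons release GABA, arise in the medial ganglionic eminence and fire brief spikes at high rates, and most of them are basket cells that contact the cell bodies of their targets. Parvalbumin (Pvalb) and calbindin (Calb1) are proteins that bind calcium, and Gpr149 encodes an orphan receptor of the family coupled to G proteins. Many cortical interneurons also make neuropeptides, which are cut from precursor proteins and act on receptors of neighbouring cells. Neuropeptide Y (Npy) and somatostatin (Sst) are best known in cortex from somatostatin interneurons, Penk encodes the enkephalin precursor, Cck encodes cholecystokinin, and Tac1 encodes the precursor of substance P.

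The depth of the members varied widely. Exonic counts per cell lay between 468848 and 4705415 (median 1247334) in Calb1_1, between 31638 and 5101324 (median 1723122.5) in Calb1_2 and between 45338 and 5411147 (median 1355975) in Gpr149. The median number of genes with an exonic count was 5784, 7068.5 and 7350 in the same order. Intronic counts made up a median of 25.6% of a cell's counts in Calb1_1, 42.96% in Calb1_2 and 42.6% in Gpr149. The 9 Calb1_1 cells were recorded on 9 days, all in the later of 2 periods into which the recording days were split at a turn of the year. Calb1_2 held 11 cells from the earlier and 19 from the later period, and Gpr149 held 14 and 16. Recording period and t-type can thus not be told apart for Calb1_1, and 1 deep cell holds 31.4% of the counts of that t-type. Levels are given as CPM, the usual read count scaled to a fixed library total, from exonic counts summed over the cells of a t-type and divided by their total without spike-in sequences. Intervals behind them are exact Poisson intervals (95%) of the pooled reads, so they leave out the spread between cells and between mice. The reads carry no molecular identifiers, so amplified copies of 1 molecule count separately, and the intervals can understate counting error too.

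The peptide genes Npy, Sst, Cck and Tac1 are described below in every member t-type, and their promoters are shown for this reason. Penk, Fzd6, Calb1 and Gpr149 had no entry in the promoter table used. Pvalb and Col24a1 had entries that are not printed here, and the remaining genes were not looked up. The sequences run 5′ to 3′ on the gene's strand, from 250 bases before to 50 bases after the annotated start, and come from RefSeq (GRCm38.p6). They lie at chr6:49822460-49822759 (plus strand) for Npy, chr16:23890795-23891094 (minus strand) for Sst, chr9:121495645-121495944 (minus strand) for Cck and chr6:7554811-7555110 (plus strand) for Tac1. Capitals mark the palindrome TGACGTCA, the consensus of the cAMP response element.
Npy: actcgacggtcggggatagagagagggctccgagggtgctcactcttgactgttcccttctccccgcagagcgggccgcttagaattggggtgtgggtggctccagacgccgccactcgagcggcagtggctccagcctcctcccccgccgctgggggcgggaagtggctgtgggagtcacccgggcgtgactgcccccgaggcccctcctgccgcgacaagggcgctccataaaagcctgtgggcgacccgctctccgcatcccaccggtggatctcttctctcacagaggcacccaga
Sst: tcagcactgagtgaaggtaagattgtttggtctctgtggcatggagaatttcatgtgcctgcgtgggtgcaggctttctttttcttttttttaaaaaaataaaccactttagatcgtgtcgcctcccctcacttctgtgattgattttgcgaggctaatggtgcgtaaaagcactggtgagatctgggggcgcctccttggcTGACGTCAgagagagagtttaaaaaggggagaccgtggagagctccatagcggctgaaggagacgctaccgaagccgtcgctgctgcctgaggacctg
Cck: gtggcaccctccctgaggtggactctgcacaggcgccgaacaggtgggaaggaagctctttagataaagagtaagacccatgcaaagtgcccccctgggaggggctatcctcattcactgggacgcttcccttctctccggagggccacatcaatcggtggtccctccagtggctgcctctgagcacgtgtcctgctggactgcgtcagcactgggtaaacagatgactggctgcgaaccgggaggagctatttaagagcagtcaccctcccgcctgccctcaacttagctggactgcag
Tac1: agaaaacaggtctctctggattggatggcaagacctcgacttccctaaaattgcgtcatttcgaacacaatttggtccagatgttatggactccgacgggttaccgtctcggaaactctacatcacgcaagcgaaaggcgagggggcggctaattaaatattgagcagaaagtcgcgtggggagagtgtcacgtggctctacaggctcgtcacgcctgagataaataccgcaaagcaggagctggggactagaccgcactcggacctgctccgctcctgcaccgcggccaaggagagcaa
The palindrome occurs once in the Sst promoter, starting at base 203, and in none of the other 3. It is found in 1.79% of 32851 promoters of the same length. The letters TATAAA, which match in 13.6% of these promoters, are not in any of the 4 windows when both strands are searched. GC content is 68% for Npy, 50.3% for Sst, 59.3% for Cck and 54% for Tac1. A match is a description of the sequence only.

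Pvalb, on chromosome 15 (78191114 to 78206400, minus strand, GENCODE M21 on GRCm38), marked the members as their labels say. It reached 397 CPM (interval 387 to 407) in Calb1_1, 366 CPM (361 to 371) in Calb1_2 and 380 CPM (374 to 385) in Gpr149, against 16.6 CPM in 272 Sst cells. At least 10 CPM were present in 8 of 9, 27 of 30 and 29 of 30 cells. Over all 9 t-types the order was Reln (513 CPM), Calb1_1, Gpr149, Calb1_2, Kank4 (341), Il1rapl2 (327), Vipr2_2 (287), Egfem1 (202) and Gabrg1 (115). The 3 members do not separate from each other in this order, because leaving out the cell with most Pvalb reads in each gave 295, 305 and 253 CPM.

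Calb1, on chromosome 4 (15881264 to 15908064, plus strand), was neither read in most cells of the t-types named after it nor restricted to them. It stood at 199 CPM (interval 191 to 206) in Calb1_1 and 76.6 CPM (74.3 to 78.9) in Calb1_2. The order over the t-types placed Il1rapl2, at 140 CPM, between both, followed by Gpr149 (13.04), Reln (12.4), Vipr2_2 (12.2), Kank4 (2.44), Egfem1 (0.905) and Gabrg1 (0). In the 9 Calb1_1 cells, Calb1 was at 849, 0, 0, 142, 0, 0, 63.99, 313 and 0 CPM. At least 10 CPM were found in 4 of 9 Calb1_1 cells, 7 of 30 Calb1_2 cells, 4 of 30 Gpr149 cells and 39 of 88 Il1rapl2 cells. Single cells carried much of each sum, with 49.6% of the reads in Calb1_1, 51.4% in Calb1_2 and 77.3% in Gpr149. The 272 Sst cells, for which calbindin is also a known marker, held 882 CPM.

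Gpr149, on chromosome 3 (62529077 to 62605140, minus strand), was at 30.3 CPM (interval 28.8 to 31.9) in the t-type named after it, and no read of it was found in the 39 Calb1 cells. Only 8 of the 30 Gpr149 cells had an exonic read. Of these, 6 were recorded in the earlier period, and their levels were 13.51, 162, 238, 70.4, 215 and 208 CPM. The remaining 2 were recorded in the later period and stood at 1.70 and 0.746 CPM. The sum was 98.5 CPM over the 14 earlier cells and 0.152 CPM over the 16 later ones. Reads of Gpr149 were also present in Gabrg1 (32.8 CPM, in 1 of 7 cells), Vipr2_2 (25.9 CPM, 3 of 17) and Egfem1 (10.1 CPM, 2 of 11). In exonic counts, the gene that names the t-type was therefore at or near 0 in all of its later cells, which are called by their label only. In intronic counts over both periods, its log2 fold change was -5.73 for the Calb1 t-types against Gpr149. It was 3.15 for Gpr149 against the other Pvalb cells. Intronic reads of the later cells alone are not reported here.

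**Figure D1:**
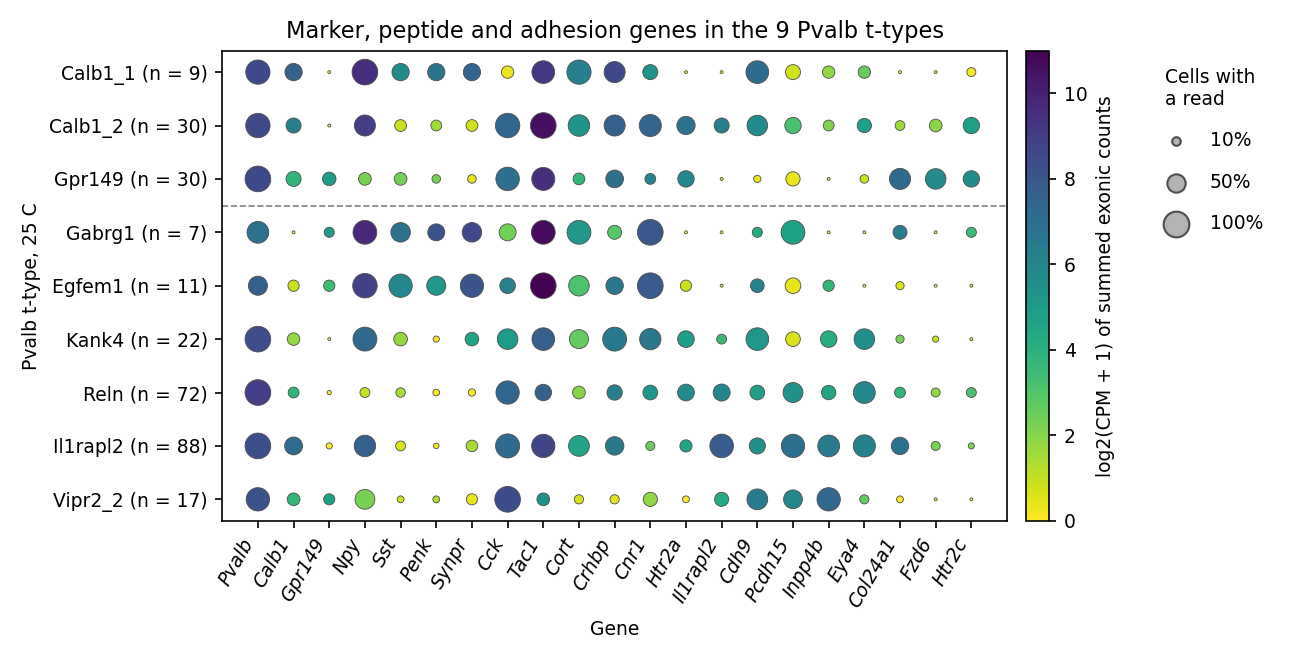
Levels of 21 genes (columns) in the 9 Pvalb t-types at 25 °C (rows, with n cells). Colour gives log2(CPM + 1) of the summed exonic counts, dot size gives the percentage of cells with a read, and the dashed line sets the 3 member t-types apart. In these sums, Npy, Sst, Penk and Synpr are each high in Calb1_1, Gabrg1 and Egfem1, which does not place them in the same cells. In Calb1_1, 2 of 9 cells had 10 CPM or more of both Penk and Synpr. The Gpr149 row has 53.7 CPM of Fzd6 and 51.1 of Htr2c.

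Col24a1 and Fzd6 were read in more cells of the Gpr149 t-type than its name gene, in 20 and 19 of 30. Col24a1 (chromosome 3, 145292472 to 145552011, plus strand) encodes a fibrillar collagen chain, and Fzd6 (chromosome 15, 39006034 to 39038188, plus strand) encodes a receptor for Wnt ligands. Col24a1 was at 156 CPM in Gpr149, 0 in Calb1_1 and 2.11 in Calb1_2. Fzd6 was at 53.7 CPM in Gpr149, 0 in Calb1_1 and 2.77 in Calb1_2. At least 10 CPM of either gene was present in 21 of 30 Gpr149 cells (70%, exact binomial interval 50.6 to 85.3), in 5 of 30 Calb1_2 cells and in 0 of 9 Calb1_1 cells (exact binomial interval 0 to 33.6). The same held for 39 of 88 Il1rapl2 cells (44.3%, interval 33.7 to 55.3), 12 of 72 Reln, 3 of 22 Kank4 and 2 of 7 Gabrg1 cells. In Egfem1 and Vipr2_2 it held for 0 of 11 and 0 of 17 cells. These intervals cover the number of cells only, and both genes were picked for their levels in Gpr149. Outside the members, Col24a1 was also high in Il1rapl2 (108 CPM) and Gabrg1 (81.5 CPM, 84.4% of it in 1 cell), while Fzd6 stayed at or below 3.83 CPM in each of the other 6 t-types. Both genes were read in each recording period, with Col24a1 at 182 and 145 CPM and Fzd6 at 45.1 and 57.5 CPM in the Gpr149 cells of the earlier and the later period. All 6 cells with 10 CPM or more of Gpr149 also had Col24a1, and 11 further cells had Col24a1 without Gpr149.

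The peptide transcripts differed in level between the 3 member t-types, with overlap between their cells. Npy (chromosome 6, 49822710 to 49829507, plus strand) was at 761 CPM (interval 747 to 775) in Calb1_1, 507 CPM (502 to 513) in Calb1_2 and 3.72 CPM (3.19 to 4.31) in Gpr149. The 9 Calb1_1 cells held 1436, 702, 153, 2455, 1410, 525, 648, 233 and 441 CPM, so that each was well above 10 CPM. Calb1_2 ranged from 0 to 7102 CPM with a median of 10.5, and 15 of its 30 cells reached 10 CPM. A single Calb1_2 cell carried 59.4% of the reads, and the sum without it was 215 CPM. In Gpr149, the values ran from 0 to 43.1 CPM with a median of 0, and 2 of 30 cells reached 10 CPM.

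Cck (chromosome 9, 121489824 to 121495694, minus strand) showed the opposite arrangement. It was at 0.267 CPM in Calb1_1, at 172 CPM (interval 168 to 175) in Calb1_2 and at 131 CPM (128 to 135) in Gpr149. The highest of the 9 Calb1_1 cells had 2.13 CPM, and 7 of these cells had no read. Calb1_2 ranged from 0 to 1131 CPM (median 126) and Gpr149 from 0 to 705 CPM (median 84.8). At least 10 CPM were found in 0 of 9, 24 of 30 and 22 of 30 cells. Cck was also low in Gabrg1 (4.21 CPM) and highest in Vipr2_2 (343 CPM).

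Among the members, most cells with both Npy and Cck belonged to Calb1_2. At a limit of 10 CPM, 9 of its 30 cells had both transcripts, 6 had Npy without Cck, 15 had Cck without Npy and 0 had neither. In Calb1_1, all 9 cells had Npy without Cck. In Gpr149, 20 cells had Cck without Npy, 2 had both and 8 had neither.

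**Figure D2:**
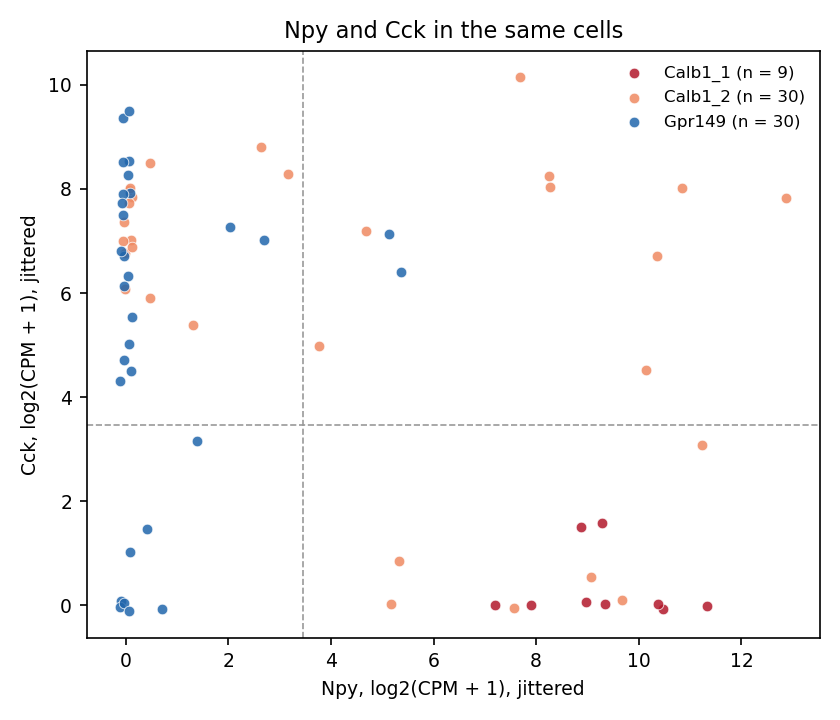
Npy (horizontal axis) against Cck (vertical axis) in each of the 69 member cells, both as log2(CPM + 1) with a small jitter. Dashed lines mark 10 CPM and colours mark the t-types. The 9 Calb1_1 cells lie at the lower right, all but 2 Gpr149 cells to the left of the Npy limit, and the Calb1_2 cells spread over both and the upper right.

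Tac1 (chromosome 6, 7554879 to 7565834, plus strand) was abundant in all 3 member t-types and strongest in Calb1_2. The level was 612 CPM (interval 600.0 to 625.1) in Calb1_1, 1547 CPM (1537 to 1557) in Calb1_2 and 718 CPM (710 to 726) in Gpr149. Each of the 30 Calb1_2 cells had Tac1, with a lowest value of 316, a median of 1373 and a highest value of 5001 CPM. In Gpr149 the values ran from 0 to 3319 CPM (median 684), and in Calb1_1 from 0 to 1896 CPM (median 607), so both overlapped with Calb1_2. Among the other t-types, Egfem1 (2026 CPM) and Gabrg1 (1621 CPM) were higher still, and Reln (194 CPM) and Vipr2_2 (41.003 CPM) were lower.

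Sst (chromosome 16, 23889573 to 23890958, minus strand) and Penk (chromosome 4, 4133531 to 4138819, minus strand) were present in some Calb1_1 cells and nearly absent from the other members. The 9 Calb1_1 cells held 0, 0, 0, 0, 184, 15.3, 119, 97.8 and 0 CPM of Sst. They held 0, 51.8, 0, 0, 524, 57.6, 1694, 0 and 0 CPM of Penk. Of these cells, 3 had 10 CPM or more of both genes, 1 had Sst alone, 1 had Penk alone and 4 had neither. The sums for Sst were 50.9 CPM in Calb1_1, 0.874 in Calb1_2 and 4.06 in Gpr149, against 2189 CPM in the Sst cells. Penk stood at 110 CPM in Calb1_1, 1.93 in Calb1_2 and 3.91 in Gpr149. Gabrg1 and Egfem1 also had Sst, at 116 and 55.9 CPM. Their Penk levels were 292 CPM, of which 93.9% came from 1 cell, and 35.5 CPM.

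Further genes were high in Calb1_1, Gabrg1 and Egfem1. Synpr, which encodes synaptoporin, a protein of synaptic vesicles, was at 180, 395 and 277 CPM in these 3 t-types, and at 0.749 CPM in Calb1_2 and 0.317 CPM in Gpr149. Rbp4, which encodes a retinol carrier, was at 383 CPM in Calb1_1, 306 in Gabrg1 and 294 in Egfem1, but also at 182 CPM in Calb1_2 and 51.99 CPM in Gpr149. Spp1, which encodes osteopontin, was at 621 CPM in Calb1_1 and 60.8 CPM in Calb1_2.

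**Figure D3:**
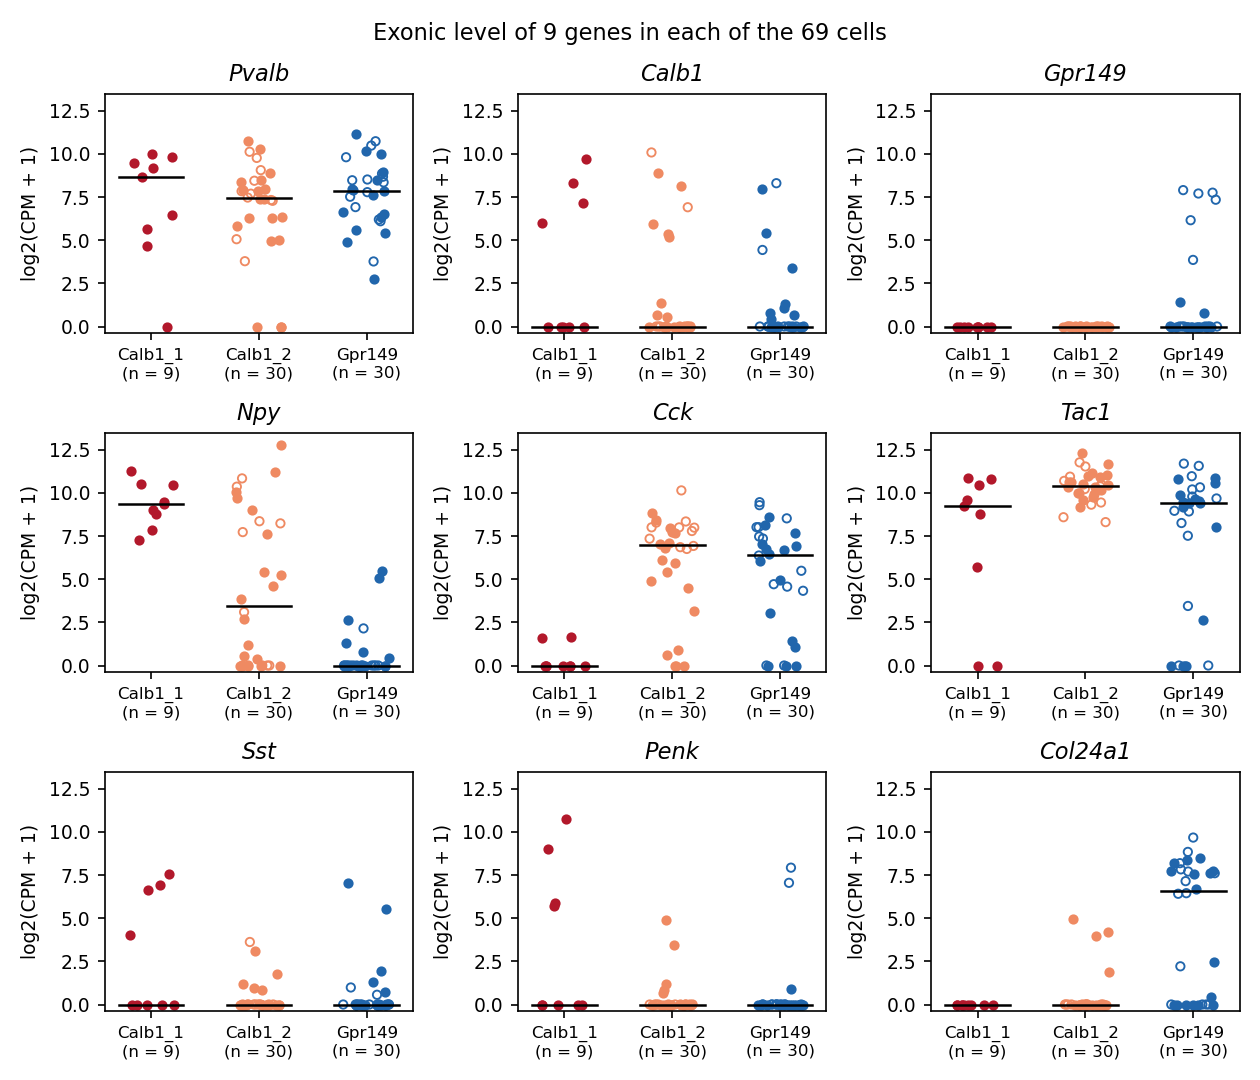
Exonic level as log2(CPM + 1) of 9 genes in each of the 69 member cells, by t-type. Open circles are cells of the earlier recording period, filled circles cells of the later one, and black lines are medians. Npy is above 10 CPM in all 9 Calb1_1 cells, Cck is near 0 in the same cells, and Gpr149 is above 10 CPM in 6 cells, each of the earlier period.

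**Figure D4:**
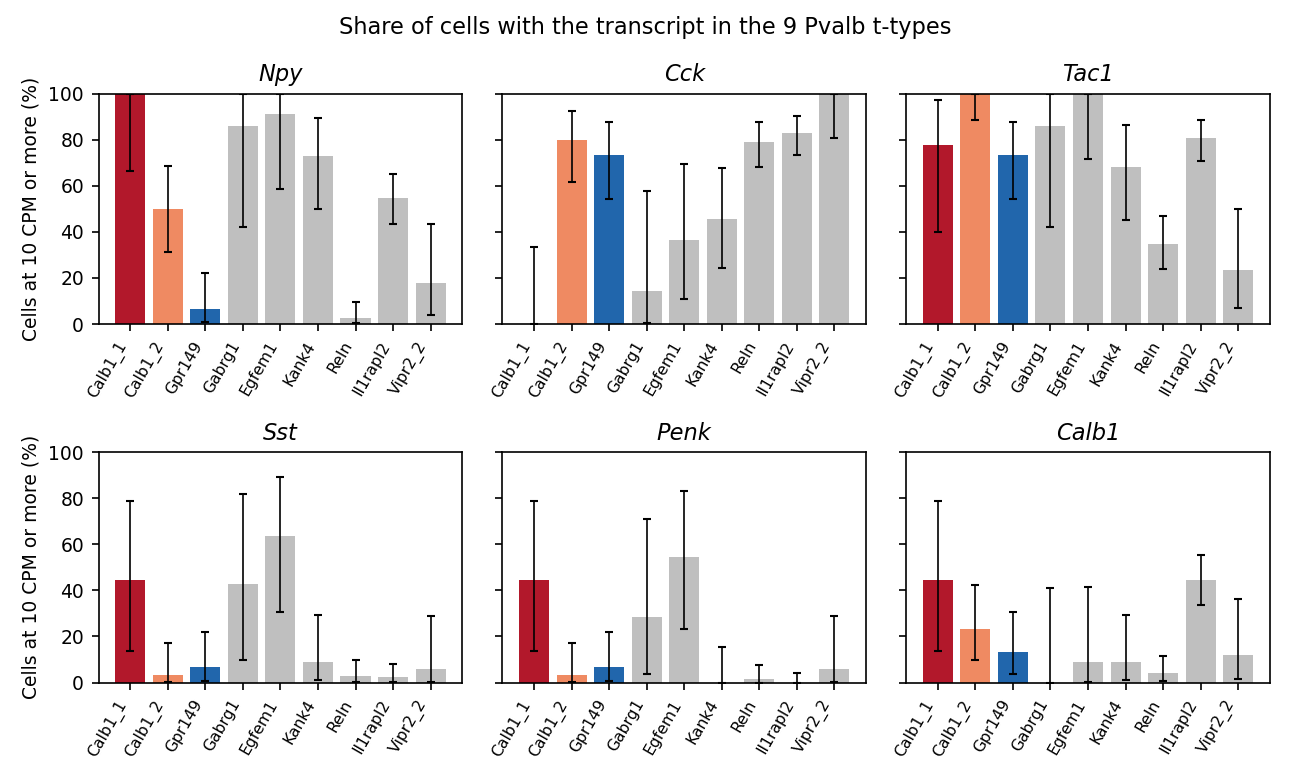
Percentage of cells at 10 CPM or more of Npy, Cck, Tac1, Sst, Penk and Calb1 in the 9 Pvalb t-types, with members in colour and the others in grey. Error bars are exact binomial intervals (95%), which cover the number of cells only. Npy was present in 9 of 9 Calb1_1, 15 of 30 Calb1_2 and 2 of 30 Gpr149 cells, and Cck in 0 of 9, 24 of 30 and 22 of 30.

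The Calb1 t-types (39 cells) were compared with the Gpr149 t-type (30 cells) to ask how the members differ among themselves. Fold changes are on the scale of log2(CPM + 1), which understates the change of low genes, and genes were described where the mean of both groups was at least 10 CPM. Of 10077 such genes, 13.1% were at least 2-fold higher and 10.8% at least 2-fold lower in the Calb1 t-types, and the median log2 fold change was 0.07. The split differed between the recording periods. Among cells of the earlier period 1849 genes were higher and 2803 lower, and among cells of the later period 1973 were higher and 1252 lower. The earlier period held 11 Calb1 cells, all of them Calb1_2, and 14 Gpr149 cells, so period and t-type changed together. With median-of-ratios scaling of all cells, 1184 genes were higher and 1190 lower.

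Among the genes higher in the Calb1 t-types, Npy led with a log2 fold change of 6.90 (561 against 3.72 CPM). Its fold was 6.86 in the earlier cells, 6.73 in the later ones and 2.26 in intronic counts. Further genes with large folds are given with what they encode. Cnih3, which encodes an auxiliary subunit of AMPA receptors, was at 61.6 against 0.106 CPM (log2 5.82). Cdh9, a cadherin, was at 69.8 against 0.338 CPM (log2 5.73) and was read in 66.7% against 6.67% of cells. Ptprt, a receptor phosphatase with adhesive domains, was at 104 against 1.205 CPM (log2 5.57) and higher on each of the 6 days that held both groups. It was carried by Calb1_2 (130 CPM) and low in Calb1_1 (7.74 CPM). The semaphorin Sema3a was at 51.7 against 0.211 CPM (log2 5.44, and 1.51 in intronic counts). Il1rapl2, a synaptic organizer, was at 63.2 CPM and had no read in Gpr149, so that it was at least 997-fold higher if Gpr149 is given 3 counts in all. This rested on Calb1_2, where 10 of 30 cells had a read and 53.2% of the reads came from 1 cell.

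Several other leading genes rested on single cells or on 1 period. Acta1 (log2 5.43) had 84.5% of its reads in 1 Calb1 cell. Sema3e (log2 3.76) was at -0.80 in the earlier cells and at 7.24 in the later ones. Penk (log2 2.39) was at -3.77 in the earlier period, when no Calb1_1 cell was recorded, and at 4.89 in the later period. Calb1 itself was 2.88 higher on the log2 scale (102 against 13.04 CPM), and 0.33 in intronic counts.

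Genes lower in the Calb1 t-types, and thus higher in Gpr149, were led by Col24a1 at a log2 fold change of -5.89 (1.66 against 156 CPM). It was lower on 5 of 6 shared days and higher on 0. Fzd6 (-4.10), Olfm3 (-3.99), Cntn4 (-3.69) and Cdh12 (-3.36) followed, and each was lower on 5 of the 6 days. In intronic counts Col24a1 was at -1.66, Fzd6 at -3.58, Olfm3 at -4.52, Cntn4 at -1.66 and Cdh12 at -1.65. Olfm3 encodes a secreted olfactomedin, and Cntn4 and Cdh12 encode adhesion proteins. Cdh12 was read in 86.7% of Gpr149 cells and in 25.6% of Calb1 cells, at 173 and 15.9 CPM. Pnoc, the precursor of the opioid-like peptide nociceptin, was at 39.98 CPM in Gpr149 and 5.22 CPM in the Calb1 t-types (log2 -2.72). Tmtc2 (-5.38) and Blm (-3.42) had 57% and 72.6% of their Gpr149 reads in 1 cell, and stood at -1.54 and -1.60 in intronic counts. Gpr149 itself had no read in the Calb1 t-types and was at least 717-fold higher in Gpr149 if the Calb1 t-types are given 3 counts in all.

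**Figure D5:**
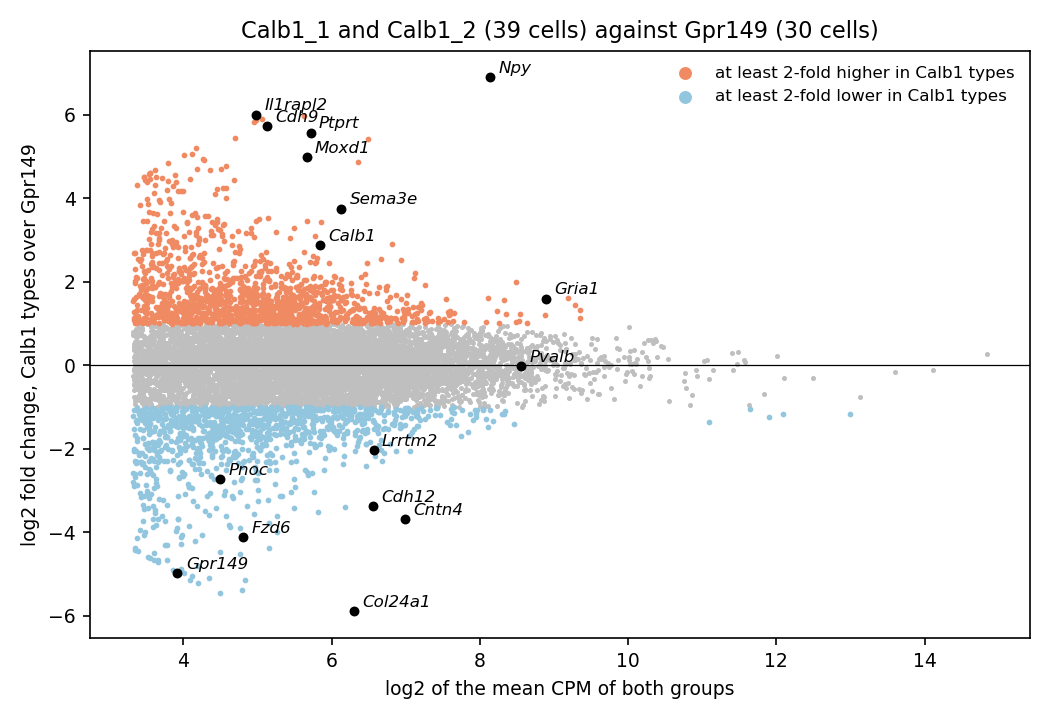
Log2 fold change of the Calb1 t-types (39 cells) over Gpr149 (30 cells) against log2 of the mean CPM of both groups, 1 point per gene. Orange points are at least 2-fold higher and blue points at least 2-fold lower in the Calb1 t-types, and black points are named. Npy (6.90) and Col24a1 (-5.89) lie at the extremes, and Pvalb (-0.03) lies at 0. The heights of Gpr149 and Il1rapl2, which have no read in 1 group, depend on the 1 CPM added.

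Gene groups of the synapse differed unevenly between the Calb1 t-types and Gpr149, beside a background of 13.1% higher and 10.8% lower. Of 23 described synaptic organizers, 8 were higher and 3 lower in the Calb1 t-types (median log2 0.31). Lrrtm2, a postsynaptic adhesion protein, was among the lower ones at 36.7 against 153 CPM (log2 -2.03). Of 13 ionotropic glutamate receptor subunits, 2 were higher and 3 lower (median 0.10). The AMPA receptor subunit Gria1 was at 718 against 236 CPM (log2 1.60) and was higher on all 6 shared days, but it was at 0.52 in the earlier cells and 0.55 in intronic counts. The NMDA receptor subunit Grin2a was at 99.3 against 10.6 CPM (log2 3.11), and Grin3a at 0.451 against 21.9 CPM (log2 -3.98). Of 16 presynaptic release genes, 1 was higher and 1 lower (median 0.20), and the higher one was the calcium sensor Syt1 with 931 against 371 CPM (log2 1.33, and 0.67 in intronic counts).

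Further lists are given beside the same background of 13.1% higher and 10.8% lower. Axon guidance genes numbered 8 higher and 5 lower of 25 (median 0.51), and cadherins and other adhesion genes 6 higher and 8 lower of 27 (median 0.15). In the Kv3 and fast-spiking list, 2 were higher and 1 lower of 18 (median -0.09). The potassium channel modifier Kcng4 was the lower one in exonic counts, at 14.6 against 91.5 CPM (log2 -2.57), but stood at 0.71 in intronic counts. The channel-interacting protein Kcnip4 was at 419 against 136 CPM (log2 1.62) and at 0.43 in the earlier cells. Neuropeptides numbered 3 higher and 1 lower of 8 (median 0.93), and Cort, which encodes cortistatin, was at 45.4 against 11.96 CPM (log2 1.84). Among calcium-binding proteins, 4 were higher and 1 lower of 15 (median 0.22), with Pvalb at 373 against 380 CPM (log2 -0.03).

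In other groups, some of them short, fewer genes were 2-fold apart, beside the same background of 13.1% higher and 10.8% lower. No gene of the 27 of oxidative phosphorylation was 2-fold apart (median 0.33), nor was any of 4 neurofilament genes (median -0.62). Nefh was at 78.2 against 155 CPM (log2 -0.98) and lower on each of the 6 days in exonic counts, but at 1.61 in intronic counts. Of 8 transcription factors of the medial ganglionic eminence lineage, 0 were higher and 1, Satb1, was lower (207 against 443 CPM, log2 -1.09).

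Within the Calb1 t-types, Calb1_1 (9 cells) was compared with Calb1_2 (30 cells). Of 9762 described genes, 16% were at least 2-fold higher and 26% at least 2-fold lower in Calb1_1, and the median log2 fold change was -0.12. A single cell holds 31.4% of the Calb1_1 counts. Between the Calb1 t-types and Gpr149, 2416 genes at least 2-fold apart became 4652 when only 11 and 14 cells were used. Shares from groups with different numbers of cells are therefore not compared with each other. No recording day held both t-types, so all folds below are between days. The folds of at least 2 named below kept their direction when only the Calb1_2 cells of the later period were used.

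Calb1_1 was higher in Synpr (180 against 0.749 CPM, log2 6.69), Penk (110 against 1.93 CPM, log2 5.24), Sst (50.9 against 0.874 CPM, log2 4.79) and Spp1 (621 against 60.8 CPM, log2 3.33). Dgkb, a diacylglycerol kinase, was at 203 against 4.57 CPM (log2 5.196), with 66% of its reads in 1 cell and a fold of 0.76 in intronic counts. The potassium channel modifier Kcns3 was at 280 against 50.6 CPM (log2 2.44), with 73.1% in 1 cell. Calb1 was at 199 against 76.6 CPM (log2 1.36) and Pvalb at 397 against 366 CPM (log2 0.11). In intronic counts, the log2 fold change was 3.70 for Calb1 and -4.18 for Pvalb, so the 2 kinds of counts disagreed for Pvalb.

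Genes lower in Calb1_1 included Cck (log2 -7.09), the potassium channel partner Dpp10 (0.267 against 131 CPM, log2 -6.70) and Luzp2 (0.134 against 117 CPM, log2 -6.70). Dpp10 was read in 22.2% of Calb1_1 cells and 86.7% of Calb1_2 cells. The serotonin receptor Htr2a had no read in Calb1_1 and 112 CPM in Calb1_2, which makes it at least 559-fold higher there, and 50% of Calb1_2 cells had a read. In intronic counts the log2 fold change of Htr2a was only -0.55. M6pr, the receptor that sorts lysosomal enzymes, was at 0 and 106 CPM, at least 530-fold higher in Calb1_2 on the same floor of 3 counts. Il1rapl2 was at 0 and 80.1 CPM (at least 400-fold on that floor), from few Calb1_2 cells as given above. These bounds leave out the spread between cells, and Calb1_1 holds only 9. In intronic counts the log2 fold change was -3.61 for M6pr and -6.80 for Il1rapl2. Adamts15, a protease that cleaves proteoglycans of the matrix, was at 1.47 against 170 CPM (log2 -6.12). The cannabinoid receptor Cnr1 was at 39.3 against 172 CPM (log2 -2.10) and Tac1 at 612 against 1547 CPM (log2 -1.34). The early response gene Nr4a1 was at 2.003 against 53.1 CPM (log2 -4.17) in exonic counts, yet at 1.40 in intronic counts. Exonic and intronic counts also disagreed in sign for the GABA receptor subunit Gabrd (-1.26 and 2.17) and for the channel subunit Kcnq3 (-2.39 and 0.21).

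The gene groups are set against the background of 16% and 26%. Neuropeptides numbered 2 higher and 3 lower of 8 in Calb1_1 (median 0.76), metabotropic glutamate receptors 1 higher and 3 lower of 4 (median -1.22) and monoamine and acetylcholine receptors 4 higher and 6 lower of 11 (median -1.17). Of 9 perineuronal net genes, 1 was higher and 4 were lower (median -0.87). Of 19 other potassium channels, 4 were higher and 6 lower (median -0.50). Ionotropic glutamate receptors were not 2-fold apart in any of 10 (median -0.03), nor were the 27 genes of oxidative phosphorylation (median -0.14).

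All 69 members together were then compared with the 217 other Pvalb cells. Of 10224 described genes 2.6% were at least 2-fold higher and 4.02% at least 2-fold lower in the members, with a median log2 fold change of -0.02. Pvalb was at 375 against 372 CPM (log2 0.01), and Calb1 was at 66.6 against 57.2 CPM (log2 0.22). The GABA-synthesis gene Gad1 was at 1914 CPM in Calb1_1, 2816 in Calb1_2 and 2826 in Gpr149.

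Tac1 was higher in the members, at 1097 against 428 CPM (log2 1.36), and on 29 of the 36 days that held both groups. It was at 1.78 in the earlier cells and 1.04 in the later ones. The guidance ligand Slit3 was at 79.2 against 20.8 CPM (log2 1.88) and higher on 21 of 36 days, and Rbp4 at 155 against 42.3 CPM (log2 1.85) and higher on 19. The Rbp4 fold was carried by the Calb1 t-types (log2 2.38 against the same other cells). Its Gpr149 level, given above, was near that of the other Pvalb cells, and Gabrg1 and Egfem1 stood above the members' 155 CPM. Resp18, a protein of peptide-secreting granules, was at 70.2 against 26.1 CPM (log2 1.39) and higher on 24 days. These 3 were under 2-fold in intronic counts, with Slit3 at 0.57, Rbp4 at 0.33 and Resp18 at 0.40, and Resp18 was at 0.69 in the later cells. The serotonin receptor Htr2c was at 32.3 against 4.34 CPM (log2 2.64) and was read in 36.2% against 6.91% of cells. Of 8 neuropeptide genes, 4 were higher and 1 was lower (median 0.82). Over all described genes, 2.6% were higher and 4.02% lower, with a median of -0.02. For Crhbp (log2 1.24) and Cort (log2 1.33), which are among the 4 higher neuropeptide genes, the sign was not stable. Crhbp was at -0.22 in the earlier period and 0.62 in introns, and Cort was at -0.33 in intronic counts.

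Among the genes lower in the members, the guidance receptor Epha4 was at 1.32 against 53.9 CPM (log2 -4.57), lower on 24 and higher on 3 of 36 days. By t-type it was at 0, 1.25 and 1.82 CPM in the members, between 27.1 and 120 CPM in Kank4, Reln, Il1rapl2 and Vipr2_2, but also at 2.10 CPM in Gabrg1 and 0 in Egfem1. Inpp4b, a lipid phosphatase, was at 1.90 against 53.8 CPM (log2 -4.24), and the adhesion protein Pcdh15 at 4.05 against 64.99 CPM (log2 -3.71). Pcdh15 was lower on 26 and higher on 8 days. Its level was 0.801 CPM in Calb1_1, 8.12 in Calb1_2 and 0.254 in Gpr149, and highest in Il1rapl2 (124 CPM).

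The NMDA receptor subunit Grin2a was at 63.8 against 219 CPM (log2 -1.76) and the transcriptional coactivator Eya4 at 13.8 against 52.8 CPM (log2 -1.86). Luzp2 was lower on 29 of 36 days, at 67.3 against 231 CPM (log2 -1.76). Hpca, which encodes the calcium sensor hippocalcin, was at 19.7 against 93.3 CPM (log2 -2.19), although its intronic fold was only -0.02. Of 9 extracellular matrix genes, 0 were higher and 5 lower (median -1.62, beside 2.6% and 4.02% of all genes). Their leaders, Col25a1 (log2 -4.20), Spon1 (log2 -2.94) and Thsd7a (log2 -1.74), each had their highest level in another t-type, Col25a1 in Il1rapl2 (177 CPM), Spon1 in Egfem1 (947 CPM) and Thsd7a in Vipr2_2 (602 CPM). Cadherins and other adhesion genes numbered 1 higher and 6 lower of 28 (median -0.26). Axon guidance genes numbered 2 higher and 5 lower of 28 (median -0.19).

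Lists of channel, synapse and energy genes were short beside a background of 2.6% higher and 4.02% lower, so a count of 0 in any of them is near that share and is given as a value only. Of 18 genes of the Kv3 and fast-spiking list, 0 were higher and 0 lower (median -0.05), and the same held for 16 sodium and HCN channel genes (median 0.20), 13 calcium channel genes, 11 perineuronal net genes (median 0.06), 16 presynaptic release genes (median -0.05), 10 GABA-A receptor subunits (median -0.12) and 27 genes of oxidative phosphorylation (median 0.12). The Kv3 channel gene Kcnc1 was at 608 CPM in Calb1_1, 527 in Calb1_2 and 615 in Gpr149. Kcnc2 was at 867, 721 and 687 CPM, between Gabrg1 (1758 CPM) and Vipr2_2 (182 CPM).

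Each side of the members was also set against the 217 other cells on its own. Both comparisons share these control cells, so they are given side by side and not related to each other. The Calb1 t-types had 4.19% of 10160 genes higher and 6.29% lower (median -0.02). Gpr149 had 6.46% of 10147 genes higher and 10.7% lower (median -0.08).

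For the Calb1 t-types, Npy was at 561 against 158 CPM (log2 1.82), but only 0.24 higher among cells of the earlier period and 0.27 in intronic counts. Rbp4 was at 224 against 42.3 CPM (log2 2.38), at 3.03 in the earlier cells, 1.78 in the later ones and 0.84 in intronic counts. Cartpt, the precursor of the CART peptide, was at 75.1 against 18.4 CPM (log2 1.97). Beside 4.19% of all described genes higher and 6.29% lower, 4 of 8 neuropeptide genes were higher and 1 was lower (median 1.22). The heat shock genes Hspa1a (10.3 against 57.96 CPM, log2 -2.39) and Hspa1b (10.8 against 61.6 CPM, log2 -2.40) were lower, on 14 and 15 of 21 shared days, and 5 of 16 immediate early genes were lower with 0 higher (median -0.71). Extracellular matrix genes numbered 2 higher and 6 lower of 10 (median -1.40).

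For Gpr149, Fzd6 was at 53.7 against 2.36 CPM (log2 4.03), higher on 12 and lower on 2 of 19 shared days. Zfpm2, a transcriptional cofactor, was at 73.4 against 5.12 CPM (log2 3.60), read in 63.3% against 11.1% of cells, and at 3.53 in the earlier cells and 3.65 in the later ones. Htr2c (log2 3.29), Asb2 (3.22), the Wnt-pathway receptor Lgr5 (2.72), the opsin Opn3 (2.66) and the neurturin receptor Gfra2 (2.47) were also higher. The muscarinic receptor Chrm2 was at 82.4 against 33.9 CPM (log2 1.26) and was read in 63.3% against 20.7% of cells, but its fold was 4.09 in the earlier cells and only 0.21 in the later ones. Opn3 was at 0.64 in intronic counts. Gpr149 itself had a log2 fold change of 2.82 that was 6.60 in the earlier cells and -2.82 in the later ones. On the lower side, Il1rapl2 and Inpp4b had no read in Gpr149. They were at least 1741-fold and 849-fold higher in the other cells if Gpr149 is given 3 counts in all. Pcdh15 was at -5.72, Npnt, an integrin ligand of the matrix, at -5.44, Npy at -5.07, Eya4 at -4.86, Epha4 at -4.28 and Grin2a at -4.24.

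The list counts for Gpr149 stand beside 6.46% of all described genes higher and 10.7% lower. The axon guidance list numbered 5 higher and 12 lower of 27 in Gpr149 (median -0.41). Extracellular matrix genes numbered 1 higher and 6 lower of 9 (median -1.87), synaptic organizers 1 higher and 7 lower of 23 (median -0.18) and metabotropic glutamate receptors 3 higher and 0 lower of 4 (median 1.09). The chandelier list was 0 higher and 2 lower of 2 (median -1.998), with Trps1 at 16.1 against 109 CPM (log2 -2.69). The Kv3 and fast-spiking list held 0 higher and 2 lower of 18 (median -0.02), which is near the share over all genes and is given as a value only.

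Transcripts that mark other cell types were read in the members, and they moved with some comparisons. The summed level of 7 oligodendrocyte markers was 1468 CPM in Calb1_1, 886 in Calb1_2 and 1333 in Gpr149, beside 557 CPM in the other Pvalb cells. Of 4 described, 3 were at least 2-fold higher in the members (median 1.96), beside 2.6% of all described genes. The range over cells was 0 to 9602, 0 to 7239, 8.75 to 7721 and 0 to 8520 CPM in the same order, and Mog, Mag and Cldn11 were at 0 in Calb1_1. The 8 microglia markers summed to 1839 CPM in Calb1_1 (cells 0 to 4419) and 448 CPM in Calb1_2 (cells 0 to 3782). Of these markers, 6 of 8 were higher in Calb1_1 (median 2.15), beside 16% of all described genes. A single Calb1_1 cell held 75.5% of the Calb1_1 sum, which was 657 CPM without it. This is the same deep cell that holds 31.4% of all Calb1_1 counts. Without that cell, the number of genes at least 2-fold apart between Calb1_1 and Calb1_2 was 1357 higher and 3025 lower.

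The 8 astrocyte markers summed to 447 CPM in the Calb1 t-types and 1060 CPM in Gpr149 (cells 0 to 7919). Of 6 described, 4 were lower in the Calb1 t-types (median -1.59), beside 10.8% of all described genes. Aqp4, Gfap and Gja1 were at 0 in Calb1_1. Of the 11 Sst-cell markers, 7 were at 0 in Calb1_1, and their sum was 487 CPM in Calb1_1 (cells 15.3 to 1562), 209 in Calb1_2 and 154 in Gpr149, beside 109 CPM in the other Pvalb cells. Crhbp made up most of it, with 392 CPM in Calb1_1. The 9 glutamatergic markers differed little, at 264, 273 and 280 CPM against 271 CPM, and 6 of them were at 0 in Calb1_1. Markers of endothelial and mural cells stayed at or below 10.4 CPM. Whether these transcripts had a part in the differences above was not tested.

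The whole profiles were placed by a correlation distance over the 1000 most variable genes, on the mean of log2(CPM + 1) over cells, against the other Pvalb t-types and 15 Sst t-types with at least 5 cells. Calb1_1 was nearest to Calb1_2 (distance 0.0819), followed by Gpr149 (0.0964) and Reln (0.102). Calb1_2 was nearest to Il1rapl2 (0.0349), followed by Reln (0.0393) and Gpr149 (0.0427). Gpr149 was nearest to Reln (0.0357) and next to Calb1_2 (0.0427), but with profiles from summed counts its nearest t-type was Il1rapl2 (0.0938). With summed counts, Calb1_1 stayed nearest to Calb1_2 (0.147) but was followed by Kank4 (0.155) and Il1rapl2 (0.161), and Calb1_2 stayed nearest to Il1rapl2 (0.0686) but was followed by Kank4 (0.0849), with Gpr149 at rank 4 in both. Neither Gabrg1 nor Egfem1, which shared the peptides of Calb1_1, was among its 3 nearest t-types. Calb1_1 holds the fewest cells of the members, and these distances carry no test.

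Genes whose levels were most like those of the name genes were ranked by Pearson correlation over the 9 t-type sums of log2(CPM + 1), among 10281 genes. For Calb1 they were Nrcam (0.94), Ecm1 (0.93), Ap3s2 (0.91), Grap (0.91) and Txnl4b (0.91). For Gpr149 they were BC004004 (0.93), Klhl7 (0.91), Tln1 (0.91), B3galt2 (0.90) and Fhl1 (0.89). The 9 points differ in their number of cells and in depth, and Calb1 and Gpr149 reads come from few of the cells, so this is a description only.

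A further 10 Pvalb cells were among 185 neurons recorded at 34 °C, a set that was normalized and compared apart from the rest. According to the paper, these recordings were made with kynurenic acid and picrotoxin, which block fast glutamatergic and GABAergic transmission. Their mice carried Sst-Cre or Pvalb-Cre with Ai9. The only Calb1_1 cell there had 1454 CPM of Npy, 327 of Sst, 147 of Penk, 180 of Synpr, 124 of Calb1 and 82.8 of Cck, with no read of Pvalb or Tac1. The 4 Calb1_2 cells had 794, 235, 553 and 856 CPM of Npy, 286, 203, 150 and 62.7 CPM of Cck, and 1715, 1824, 2471 and 1788 CPM of Tac1. Pvalb was at 1445, 780, 162 and 951 CPM and Calb1 at 501, 118, 0 and 0 CPM in these 4 cells. Sst, Penk and Gpr149 had no read in any of them. The levels at both temperatures are given side by side and were not tested against each other.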

How the data were processed

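Single neurons of mouse motor cortex were patched, recorded at 25 °C or 34 °C and sequenced from their aspirated RNA with Smart-seq2. The authors ran the zUMIs pipeline at its default settings, aligned the reads with STAR 2.5.4b to mm10, assigned them with a Gencode annotation and deposited exonic and intronic read counts per gene and cell, as raw counts without molecular identifiers. Demultiplexing used bcl2fastq 2.20, per the labels. Smart-seq2 reads do not mark the strand, so overlapping and antisense genes cannot be told apart from their partners, and closely related gene copies are uncertain.

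Here, the exonic counts of 42381 genes were summed over the cells of each t-type, without 85 spike-in rows that held 3.77% of the counts read, and scaled to CPM. Exonic counts per cell ranged from 31638 to 5411147 in the members. No animal is named for any cell, so each t-type was 1 sample and no test was made. Log2 fold changes used a pseudocount of 1 CPM, and genes with a mean of both groups of at least 10 CPM were described, of which those at least 2-fold apart were counted. A group without reads was set to a floor of 3 counts over the group. Folds given as at least a value rest on this floor and leave out the spread between cells. Poisson intervals (95%) treat pooled reads as independent and leave out the spread between cells. Binomial intervals (95%) cover the number of cells only. Of 1329 columns at 25 °C, 9 matched no sample and were not used. No 2 Pvalb cells had identical counts (0 pairs).

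Named genes were those in the t-type names, plus, per comparison, the 10 largest folds in each direction (6 within the Calb1 t-types) with at least 50 CPM and a read in at least 40% of cells of the higher group and the same direction for the mean over cells, and up to 4 members per gene list. Of these, the text gives a selection, and some genes are not reported here. Genes given by their levels alone, or in a comparison where the rule does not name them, were chosen after their values were seen. The members and the 33 gene lists (514 genes) were chosen with earlier results of these data known. The alternatives were the mean over cells, deeper cells (at least 500000 counts), each recording period, removal of the deepest cell, other pseudocounts and minima, median-of-ratios scaling, intronic counts, cells thinned to 200000 counts and removal of Vipr2_2. The scripts were tested on simulated data with 200 changed genes. Python 3.11.15, pandas 2.3.3, numpy 2.4.6, scipy 1.17.1 and matplotlib 3.10.9 were used.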

Additional observations from a re-analysis of the deposited data

Results flagged for a closer look

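Among the 9 Calb1_1 cells, the summed microglia markers held 1 cell apart from the others, with no read at all, while the other cells stood between 76.8 and 4419 CPM. On the log2(CPM + 1) scale its gap to the nearest cell was 0.519 of the group's range. Of 7 measures checked in this way this was the only such value, and chance sets apart about 1 group in 20.

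The log2 fold change of Penk between the Calb1 t-types and Gpr149 was -3.77 among cells of the earlier recording period and 4.89 among cells of the later one. No Calb1_1 cell was recorded in the earlier period. For Gpr149, the gene, the t-type of that name differed from the other Pvalb cells by 6.60 in the earlier period and by -2.82 in the later period. Neither difference between periods was tested.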

How the results depend on the processing

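Each of the 127 named folds of at least 2 kept its direction with the mean over cells, deep cells, removal of the deepest cells, a pseudocount of 10 CPM, median-of-ratios scaling and thinning. Some of these settings are no check of direction. The rule for the largest folds already required the same direction for the mean over cells. A larger pseudocount cannot change a sign, and median-of-ratios scaling multiplies all genes by 1 factor. With the mean over cells 124 stayed at least 2-fold, and with the pseudocount 125. Of 101 that could be formed in the earlier cells, 5 turned, as did 1 of 127 in the later cells and 11 of 127 in intronic counts. Those that stayed at least 2-fold in the same direction were 83 of 101, 119 of 127 and 86 of 127. For the members against the other Pvalb cells, the 677 genes at least 2-fold apart became 1855 in the earlier cells, 1179 in the later cells, 219 with a pseudocount of 10 CPM, 2362 and 70 with minima of 1 and 50 CPM, and 1073 in introns. For the Calb1 t-types against Gpr149, 2416 became 4652 in the earlier cells, 1511 with the pseudocount, and 5126 and 616 with the minima. For Calb1_1 against Calb1_2, 4100 became 7393 and 1342 with the minima, and no value exists in the earlier cells. For the Calb1 t-types against the other cells, 1065 became 3547 in the earlier cells, 464 with the pseudocount, 3160 and 148 with the minima, and 1668 in introns. For Gpr149 against the other cells, 1741 became 2761 in the earlier cells, 2830 in the later cells, 920 with the pseudocount, and 4205 and 367 with the minima. Signs turned in the earlier cells for Crhbp in the members (-0.22), for Sema3e (-0.80), Penk (-3.77) and Chrm1 (-0.99) between the Calb1 t-types and Gpr149, and for Filip1 in the Calb1 t-types (-0.27), and in the later cells for Gpr149 in its t-type (-2.82). In introns they turned for Cort (-0.33), Etv1 (0.021) and Dlx5 (1.005) in the members, for Ddx19b (-0.64), Kcng4 (0.71) and Dlx6os1 (-1.19) between the Calb1 t-types and Gpr149, for Gabrd (2.17), Nr4a1 (1.40) and Kcnq3 (0.21) within the Calb1 t-types, and for Calb1 (0.68) and Pnoc (-0.78) in Gpr149. The median of the oligodendrocyte list within the Calb1 t-types turned from -1.55 to 0.31 with the mean over cells. The cause was not tested. Without the Calb1_1 cell highest in microglia markers, an alternative chosen after seeing the data, the counts were 708, 2446, 4382 and 1126 for the 4 comparisons that include it. That cell is also the deepest of Calb1_1, so within the Calb1 t-types the removal of the deepest cells takes out the same Calb1_1 cell. No paired analysis was possible because no result comes from a test and the labels name no animal. Recording days shared by both groups are given as counts of days only.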
